A study of Mus musculus with 4 samples.

Results

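The Nanog cluster is a group of pluripotency genes on mouse chromosome 6, in the order Gdf3, Dppa3, Nanog and Slc2a3. Its accessible regions were taken as all peaks that overlapped chromosome 6 from 122.55 to 122.86 Mb (mm10, with positions counted from 1), in any of 4 ATAC-seq libraries. Merging the peaks that overlapped by at least 1 bp gave 77 regions, of 170898 in the genome. ATAC-seq marks open chromatin with a transposase that inserts sequencing adapters into accessible DNA. The cells, embryonic stem cells of the mouse line 2TS22C, were grown in 2i serum/LIF medium, and 900000 of them went into each library. In all of them the endogenous Sox2 was silenced and DOX was given. A lentivirus supplied SOX2 in one group and SOX17FNV, an engineered form of the endoderm factor SOX17, in the other, with 2 libraries labelled biological replicates per group. No label states that the replicates were derived separately, so p-values and SDs measure only the spread between these libraries, which may be technical.

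NANOG is a homeodomain factor of the core pluripotency network and works with OCT4 and SOX2, which bind many of their targets together at a composite DNA site. In stem cells Nanog is known to be controlled by its promoter, by an enhancer close upstream, and by super-enhancers farther upstream, towards Dppa3, and farther downstream. GDF3 is a ligand of the TGF-beta family that signals with the same coreceptor as Nodal. DPPA3 (Stella, PGC7) is a maternal and germ line protein that shields DNA methylation from loss in the early embryo, and SLC2A3 (GLUT3) is a high-affinity glucose transporter.

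The Nanog promoter is shown because it was open in all libraries and holds a composite site for SOX and OCT factors. The promoter of the neighbour Foxj2 is shown for contrast, because its region was lower in both SOX17FNV libraries. The Nanog promoter region was higher in both on the main scale used below, but not against all shared regions of the genome. Whether the sites have to do with these differences was not tested. Both are the 250 bases before an annotated start in RefSeq (GRCm38.p6, which numbers the chromosomes as mm10 does), plus strand, 5′ to 3′. The capitals mark a SOX core site (CATTGT) and an OCT core site (ATGCAA) with the 1 base between them, read on the minus strand.
Nanog, chr6:122707239-122707488: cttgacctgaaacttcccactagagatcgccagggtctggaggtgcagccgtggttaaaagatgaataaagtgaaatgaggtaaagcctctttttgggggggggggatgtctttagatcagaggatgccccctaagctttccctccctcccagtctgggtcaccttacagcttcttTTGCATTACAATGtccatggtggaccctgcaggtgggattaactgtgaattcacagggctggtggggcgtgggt
Foxj2, chr6:122819934-122820183: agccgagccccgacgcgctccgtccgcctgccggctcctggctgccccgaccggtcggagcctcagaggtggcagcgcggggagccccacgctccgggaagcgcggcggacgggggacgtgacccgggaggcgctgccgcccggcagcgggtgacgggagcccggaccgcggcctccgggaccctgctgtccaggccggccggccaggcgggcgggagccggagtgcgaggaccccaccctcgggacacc

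The composite in the Nanog promoter spans 13 bases, from 74 to 62 bases before the start (122707415 to 122707427). This canonical form, with 1 free base between the core sites, was searched on both strands and occurred in 4 of 32851 promoter windows of the same length (0.0122%). Of these windows 2 are alternative starts of Nanog that share the one site, and the others belong to the predicted genes Gm31224 and Gm34106. The compressed form, with the core sites joined directly, was not in the Nanog window and was found in 1 window (0.00304%), that of Acyp1. The SOX core site alone was in 10.7% and the OCT core site alone in 9.45% of windows, and these counts include composites. Neither core site was in the windows of Foxj2, Apobec1 or C3ar1, the other genes of the cluster with an entry. A match is only a string of letters and shows no binding.

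The libraries differed in depth, and read totals are not known, so levels were read from the summits. The pileup of a summit is the number of reads stacked on it. In these bulk libraries, fewer cells with an open site and less opening per cell cannot be told apart. It was solved from the fold enrichment and p that the authors deposited for each summit. There were 120341 and 92851 peaks with SOX17FNV and 123214 and 96500 with SOX2, of which 61, 54, 63 and 53 lay in the cluster. The genome-wide background pileups were 3.91, 3.27, 4.17 and 5.02 in the same order. Signal of chromosome 6 from 120 to 150 Mb, called the stretch below, was lower in the SOX17FNV group. The median pileup of its 923 other shared regions (called in all 4 libraries) was 0.939 and 0.917 times the median of all shared regions of the genome with SOX17FNV, and 1.11 and 1.14 times with SOX2. That is a log2 difference of -0.28 (exact permutation p = 0.333, the smallest that 2 against 2 libraries can give). Levels below are therefore multiples of each library's stretch median. The genome scale adds the same -0.28 to every log2 difference between the groups, so small positive differences turn negative on it. A region within 1 kb of a gene end was called for 8 of 8 stem cell marker genes, 4 of 8 fibroblast genes and 7 of 8 endoderm genes in each library, while 70.4%, 67.6%, 70.7% and 67.9% of all protein-coding genes had one. An open gene end does not show expression.

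The cluster was among the most densely open parts of the stretch in both groups. It held 34 shared regions, which put it at rank 2 of 96 adjoining windows of 310000 bp on the stretch, where the median window held 8 and the fullest 38. The share of its regions called in all libraries was 44.2%, beside 31.4% in the rest of the stretch and 33.8% in the genome. These shared regions had a median width of 1038 bp, compared with 805 bp for the other shared regions of the stretch. The median shared region of the cluster stood at the percentiles 84.2 and 71.8 of the SOX17FNV lists and 90.5 and 86.3 of the SOX2 lists. These lists also hold regions that were not shared, so part of this height goes with being shared. Pileups at the stretch median, 31 and 22 with SOX17FNV and 32 in SOX2 replicate 2, stood at 69.3, 58.1 and 74.5. In SOX2 replicate 1 the stretch median was 39, and pileups of 38 and 40 stood at 77.7 and 80.0.

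Most of the other regions were called in some libraries of both groups or in 1 library. There were 14 called in 3 libraries, of which 8 were missed by SOX2 replicate 2, 4 by SOX17FNV replicate 2 and 2 by SOX17FNV replicate 1. Another 8 were called in 2 libraries and 21 in 1 library. Of those 21, 8 came from SOX17FNV replicate 1 and 8 from SOX2 replicate 1, the libraries with the longer lists. Regions called in fewer than 4 libraries had a median width of 320 bp.

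Measured against the median of the stretch, the cluster as a whole was about as open in the SOX17FNV cells as in the SOX2 cells. The median level of the 34 shared regions was 1.39 and 1.25 times the stretch median with SOX17FNV and 1.36 and 1.30 times with SOX2, so the groups overlapped. On the log2 scale the groups were at 0.40 ± 0.11 and 0.41 ± 0.05 (SD, n = 2), a difference of -0.012 (exact permutation p = 1). Against all shared regions of the genome the difference was -0.29 (exact permutation p = 0.333), close to the -0.28 of the stretch itself. The direction of so small a value was not stable. It was 0.063 without SOX17FNV replicate 2, 0.022 without SOX2 replicate 1 and 0.13 when fold enrichment replaced the pileup.

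Single regions differed in both directions, by amounts usual on the stretch. Both SOX17FNV libraries lay above both SOX2 libraries in 9 of the 34 shared regions, beside 26.2% of the other shared regions of the stretch, and below them in 8, beside 16.9%. On the genome scale the counts were 1 higher and 21 lower, beside 6.18% and 46% of the stretch. Region differences ran from -0.66 to 0.50 with a median of -0.036, while those of the stretch had a median of 0.064 and quartiles of -0.15 and 0.24. Of the 34 regions, 16 lay between these quartiles. The SD of the differences was 0.28 in the cluster and 0.32 on the stretch. Replicates of one group differed with an SD of 0.30 (SOX17FNV) and 0.28 (SOX2) over the same regions. These are differences of single libraries, whereas a group difference is one of means of 2 libraries, so the SDs are not on one footing.

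**Figure D1:**
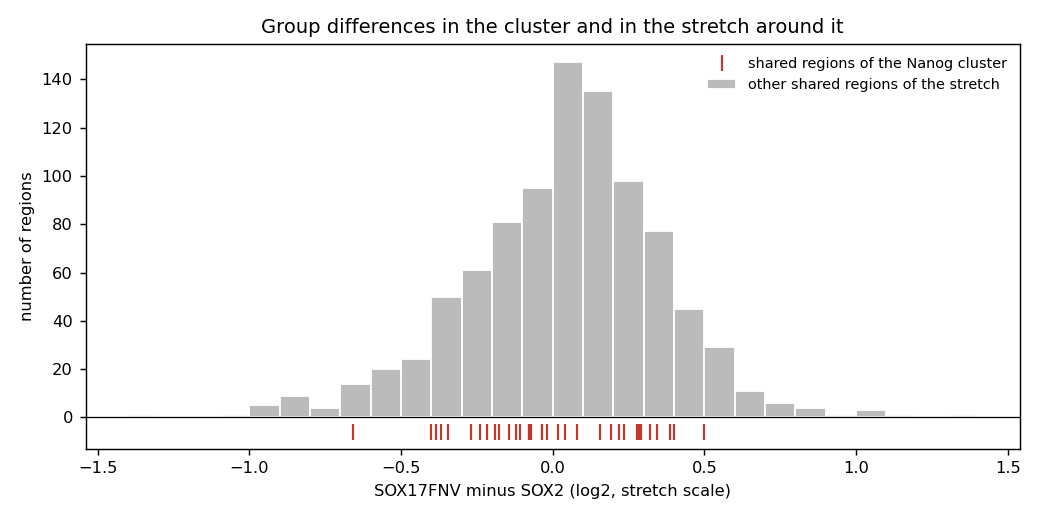
Number of other shared regions of the stretch (grey bars, y axis) by the SOX17FNV minus SOX2 difference in log2 on the stretch scale (x axis, bins of 0.1), with the 34 shared regions of the Nanog cluster as red ticks below. The ticks run from -0.66 to 0.50 and lie within the range of the grey bars.

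By summit pileup, the highest region of the cluster was an upstream region of Nanog, among the highest of the genome in each library. It spans 122702016 to 122703229, touches no gene span and ends 4260 bp before the Nanog start. Its highest summits had pileups of 111 and 91 with SOX17FNV and 113 and 94 with SOX2. These were ranks 11, 17, 9 and 32 among the regions of each library, and ranks 1, 1, 1 and 3 on the stretch. In multiples of the stretch median the levels were 3.58 and 4.14 with SOX17FNV and 2.90 and 2.94 with SOX2, or 3.86 ± 0.393 and 2.92 ± 0.0283 (SD, n = 2). The groups did not overlap, and the log2 difference was 0.40, at the percentile 89.1 of the stretch (exact permutation p = 0.333). On the genome scale it shrank to 0.12, and with fold enrichment in place of the pileup it was 0.25 and the groups overlapped. Fold enrichment of the region itself stood out less, at 4.53 and 5.14 with SOX17FNV and 3.54 and 3.79 with SOX2. The stretch medians of fold enrichment were 4.10, 3.87, 4.02 and 3.21 in the same order. All 4 highest summits lay within 129 bp of each other.

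The Nanog promoter showed the same order at a lower level. Its region (122706847 to 122707800) covers the Nanog start and the sequence printed above. The pileups were 85 and 56 with SOX17FNV and 87 and 68 with SOX2. Scaled to the stretch these were 2.74 and 2.55 against 2.23 and 2.12, with both SOX17FNV libraries above both SOX2 libraries (log2 difference 0.28, exact permutation p = 0.333). The order did not hold on the genome scale, where the difference was -0.0032, or with fold enrichment (0.12). The highest summits lay at -220 and -66 bp from the start with SOX17FNV and at -112 and -95 bp with SOX2. The composite site at -74 to -62 bp thus held the summit of SOX17FNV replicate 2. Counted from the first base of the site, the other summits lay at -146 bp in SOX17FNV replicate 1 and at -38 and -21 bp with SOX2.

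Further regions flanked Nanog on both sides. A region at 122689296 to 122690582, 16907 bp upstream, had the highest group difference of the cluster, 0.50. Its pileups were 55 and 38 with SOX17FNV and 60 and 32 with SOX2, or 1.77 and 1.73 against 1.54 and 1.0 times the stretch median. SOX2 replicate 2 was the low library. Without it the difference was 0.19, and without SOX2 replicate 1 it was 0.81. Downstream, the region at 122719752 to 122720456 between Nanog and Slc2a3 had pileups of 55 and 32 against 51 and 37. Its levels were 1.77 and 1.45 against 1.31 and 1.16, a log2 difference of 0.39 with no overlap of the groups. Without SOX17FNV replicate 1 it was 0.24, and the library left, at 1.45, was still above both SOX2 libraries. On the genome scale the differences of these regions shrank to 0.21 and 0.10, and the groups overlapped at both.

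The far end of Nanog did not follow. The region just past it (122714871 to 122716373, 238 bp from the end) had pileups of 44 and 21 with SOX17FNV and 57 and 40 with SOX2. The levels of 1.42 and 0.955 overlapped those of 1.46 and 1.25 (log2 difference -0.22, exact permutation p = 0.667), and the difference was 0.071 without SOX17FNV replicate 2 and -0.50 when SOX17FNV replicate 1 was left out. Dropping SOX2 replicate 1 gave -0.10 and dropping SOX2 replicate 2 gave -0.33. Within the gene, the region at 122712898 to 122713538 had pileups of 33 in SOX17FNV replicate 2 and of 38 and 32 with SOX2 and was not called in SOX17FNV replicate 1. A region at 122711598 to 122711844 was called in SOX17FNV replicate 1 alone, with a pileup of 44. Nanog has processed pseudogene copies elsewhere in the genome, and how reads that map to several places were treated was not stated by the submitters' notes as used here.

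**Figure D2:**
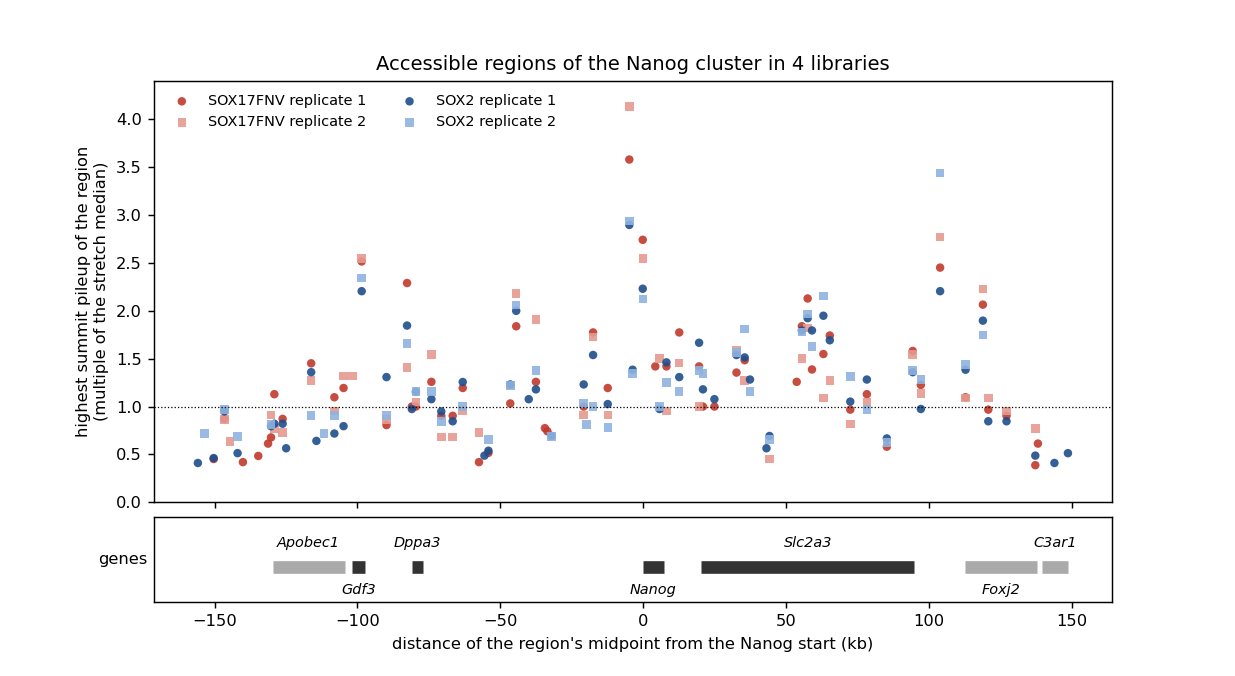
Highest summit pileup of each of the 77 regions in multiples of the library's stretch median (y axis) by the distance of its midpoint from the Nanog start in kb (x axis), with 1 point per library that called the region and the spans of the members (black) and of other named genes (grey) below. The upstream region of Nanog stands above all others with SOX17FNV, at 3.58 and 4.14, and the dotted line marks the stretch median.

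Between Dppa3 and Nanog, 20 regions were called without a protein-coding gene, and 10 of them were shared. The highest after the upstream region of Nanog spanned 122662323 to 122663751, 43738 bp upstream of Nanog. Its pileups were 57 and 48 with SOX17FNV and 78 and 66 with SOX2. Scaled to the stretch they were 1.84 and 2.18 against 2.00 and 2.06, a difference of -0.020 with the groups overlapping. A neighbour at 122669294 to 122670583 had levels of 1.26 and 1.91 against 1.18 and 1.38 and also overlapped. Of the 10 shared regions, 5 had a positive and 5 a negative difference.

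Gdf3 was the second member with an end among the strongest regions. The region from 122607822 to 122610088 is 2267 bp wide and reaches from inside the gene to its right end. Its pileups were 78 and 56 with SOX17FNV and 86 and 75 with SOX2. The levels were 2.52 and 2.55 against 2.21 and 2.34, so both SOX17FNV libraries were higher on the stretch scale (log2 difference 0.15, exact permutation p = 0.333). On the genome scale the sign turned to -0.13, and with fold enrichment the difference was 0.072 with the groups overlapping. At the other end of the gene, a region at 122605604 to 122605923 was called in SOX17FNV replicate 2 alone, with a pileup of 29. Between Gdf3 and Dppa3, a region at 122624401 to 122625267 had uneven pileups of 71 and 31 against 72 and 53, and its groups overlapped. Another, at 122617108 to 122618165, had pileups of 25 and 19 against 51 and 29. Its levels of 0.806 and 0.864 lay below those of 1.31 and 0.906 (log2 difference -0.38), and the difference was -0.12 without SOX2 replicate 1, -0.65 without SOX2 replicate 2 and -0.16 with fold enrichment.

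By the strongest region within 1 kb of an end, Dppa3 was the least open of the 4 genes. The region that ends at 122625267, left of Dppa3 and beyond 1 kb, was higher. Its levels were 2.29 and 1.41 with SOX17FNV and 1.85 and 1.66 with SOX2. The region at the left end of Dppa3 (122626221 to 122626787) was called in replicate 1 of both groups, with pileups of 31 and 38, and in neither replicate 2. Inside the gene, 850 bp from that end, the region at 122627274 to 122628573 was shared, with pileups of 31 and 23 with SOX17FNV and 45 and 37 with SOX2. The levels were 1.0 and 1.05 against 1.15 and 1.16, with both SOX17FNV libraries lower (log2 difference -0.18, exact permutation p = 0.333). On the genome scale the difference was -0.46, in the same direction. With fold enrichment it was -0.21, and scaled to the genome-wide background pileup it was -0.26. In both of these settings the groups overlapped (exact permutation p = 0.667).

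Slc2a3 showed different directions along its span of 74555 bp, which in the gene table rests on 1 curated and 5 predicted transcripts. The bounds of the curated transcript alone were not used here, so an end of this span, or a region inside it, may lie outside the curated gene. At its left end, the region at 122726356 to 122727728 had pileups of 44 and 22 with SOX17FNV and 65 and 44 with SOX2. Its levels of 1.42 and 1.0 overlapped those of 1.67 and 1.38 (log2 difference -0.35, exact permutation p = 0.667). The difference was -0.093 without SOX17FNV replicate 2 and -0.60 when SOX17FNV replicate 1 was left out. Dropping SOX2 replicate 1 gave -0.21, and with fold enrichment the sign turned to 0.15. Next to it, inside the span, the region at 122727920 to 122728870 had a pileup of 31 in SOX17FNV replicate 1 and of 46 and 43 with SOX2. SOX17FNV replicate 2 did not call it. At the right end (122801096 to 122802533) the pileups were 49 and 34 against 53 and 44. There the levels of 1.58 and 1.55 were above those of 1.36 and 1.38 (log2 difference 0.19, exact permutation p = 0.333), and on the genome scale the sign turned to -0.089.

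The lowest group difference of the cluster lay inside the Slc2a3 span, 62519 bp downstream of the Nanog start. The region at 122770008 to 122771084 had pileups of 48 and 24 with SOX17FNV and 76 and 69 with SOX2. Both SOX17FNV libraries were below both SOX2 libraries, at 1.55 and 1.09 against 1.95 and 2.16 times the stretch median. The log2 difference was -0.66, at the percentile 2.49 of the stretch (exact permutation p = 0.333), and it was -0.40 without SOX17FNV replicate 2 and -0.91 without SOX17FNV replicate 1. With fold enrichment it was -0.21, and the groups overlapped. Its neighbours at 122762504 to 122763516 and 122764438 to 122765646, with pileups up to 70 and 75, had differences of -0.11 and 0.016 with the groups overlapping. A region at 122779612 to 122780309 had pileups of 30 and 18 against 41 and 42 and levels of 0.968 and 0.818 against 1.05 and 1.31 (log2 difference -0.40). Without SOX2 replicate 2 that difference was -0.24. With fold enrichment it was -0.034, and the groups overlapped. Over the 8 shared regions of the span, 6 differences were negative and 2 positive, while 39.5% of those of the other shared regions of the stretch were negative.

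**Figure D3:**
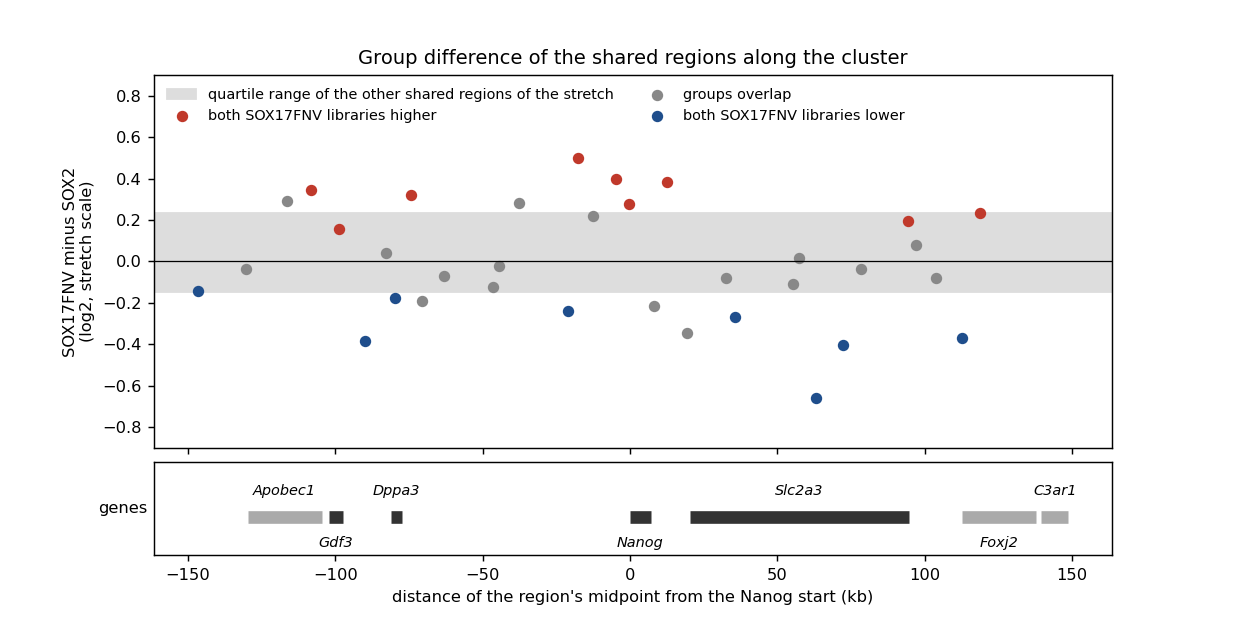
SOX17FNV minus SOX2 difference in log2 on the stretch scale (y axis) of the 34 shared regions by the distance of the midpoint from the Nanog start in kb (x axis), coloured by whether both libraries of a group lay on one side, with the quartile range of the other shared regions of the stretch in grey. The highest point, 0.50, lies at -17.55 kb, the promoter itself is at 0.28, and the lowest point, -0.66, lies in the Slc2a3 span.

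Other genes of the interval flank the members. Foxj2, a forkhead factor gene, had its start covered by a region at 122819585 to 122821017, over the second printed promoter. The pileups there were 34 and 24 with SOX17FNV and 54 and 46 with SOX2. The levels of 1.10 and 1.09 lay below those of 1.38 and 1.44, a log2 difference of -0.37. Inside Foxj2, the region at 122825893 to 122826848 had the opposite order on the stretch scale, at 2.06 and 2.23 against 1.90 and 1.75 (log2 difference 0.23). On the genome scale the sign turned to -0.047. Between Slc2a3 and Foxj2, the region at 122810420 to 122812387 was among the 5 highest, with pileups of 76 and 61 against 86 and 110, and SOX2 replicate 2 ranked it at 1 on the stretch. Its groups overlapped. Apobec1 is an RNA-editing deaminase gene. Its promoter region (122602303 to 122602907) was called in 3 libraries, with pileups of 37 and 29 with SOX17FNV and 31 in SOX2 replicate 1. C3ar1, a complement receptor gene, had a region over its promoter in SOX2 replicate 1 alone, with a pileup of 20.

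**Figure D4:**
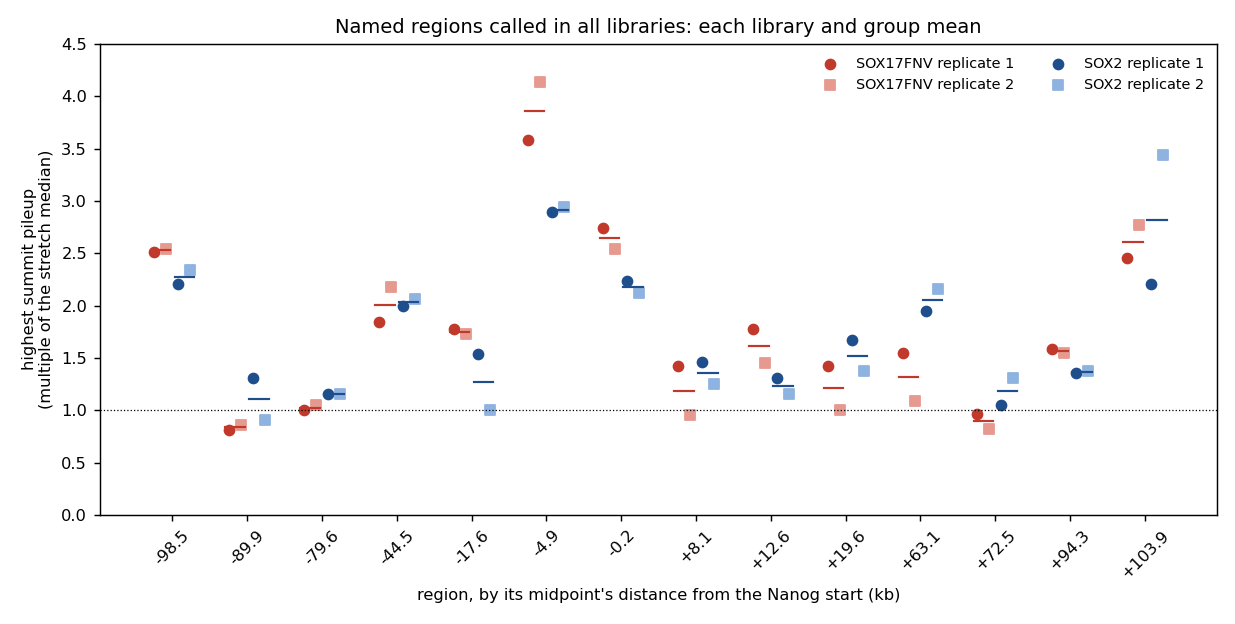
Highest summit pileup in multiples of the stretch median (y axis) of the 14 named regions called in all libraries, ordered by the distance of the midpoint from the Nanog start in kb (x axis), with 1 point per library and a bar at each group mean of 2 libraries. Positions without overlap of the groups include -4.9 kb, where the SOX17FNV libraries are higher, and +63.1 kb, where they are lower. Some of the regions were named because their groups did not overlap.

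The group-specific regions were few. SOX2-only regions, called in both SOX2 libraries and in neither SOX17FNV library, numbered 4 of 77 (5.19%), beside 7.18% on the rest of the stretch and 4.09% in the genome. The reverse, SOX17FNV-only, was seen in 1 (1.30%), beside 1.19% and 3.06%. The SOX2-only count was 1 when -log10 q had to reach 5 and 2 with lists of about equal length. When 1 library was left out, a region needed a call in only 1 library of that group. SOX2-only regions then numbered 8 without SOX17FNV replicate 1. They numbered 9 when SOX2 replicate 1 was dropped and 12 when SOX2 replicate 2 was. SOX17FNV-only regions numbered 3 without SOX17FNV replicate 1 and 9 without SOX17FNV replicate 2 or SOX2 replicate 1. No share of the stretch or the genome is given for these changed settings. Their counts therefore cannot show whether the cluster differs from its surroundings.

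The pileup needed for a call grows with the local background, which was higher in the cluster than on the stretch. At the shared regions this background had a median of 10.9 and 6.77 with SOX17FNV and 15.7 and 12.2 with SOX2, which was 1.72, 1.41, 1.80 and 1.37 times that of the stretch. Their median fold enrichment was 3.83 and 3.62 with SOX17FNV and 3.09 and 3.04 with SOX2. The stretch medians of fold enrichment were higher in each library, at 4.10, 3.87, 4.02 and 3.21. The pileup that each library needed for a call was computed from its lowest deposited -log10 p and the local background at its nearest called summit. That summit lay 992 to 4966 bp away, and the background at the region itself is not known, so the needed pileups are estimates. The SOX2-only region at 122703649 to 122703913 lies 3576 bp before the Nanog start, next to the highest region. Its pileups were 54 and 43 with SOX2, or 1.38 and 1.34 times the stretch median. Without a call, the SOX17FNV libraries would have needed 40 and 31, or 1.29 and 1.41 times. By this estimate, a level equal to either SOX2 library would have been called in SOX17FNV replicate 1 but not in SOX17FNV replicate 2.

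The other SOX2-only regions had lower requirements. Inside the Slc2a3 span, at 122744651 to 122745063, the SOX2 pileups were 50 and 37, or 1.28 and 1.16 times the stretch median. The SOX17FNV libraries needed 25 and 19, or 0.806 and 0.864 times, so by the same estimate a level equal to that of SOX2 would have been called. At 122675272 to 122675608, 31881 bp before Nanog, the pileups were 27 and 22 (0.692 and 0.688 times) and the needed levels 0.645 and 0.864 times. At 122565304 to 122565727, 141762 bp before Nanog, the pileups were 20 and 22 (0.513 and 0.688 times) and the needed levels 0.387 and 0.591 times. The SOX17FNV-only region at 122649839 to 122650161 had pileups of 13 and 16, and the SOX2 libraries needed 15 and 17. Scaled to the stretch, that was 0.419 and 0.727 times against a needed 0.385 and 0.531 times.

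**Figure D5:**
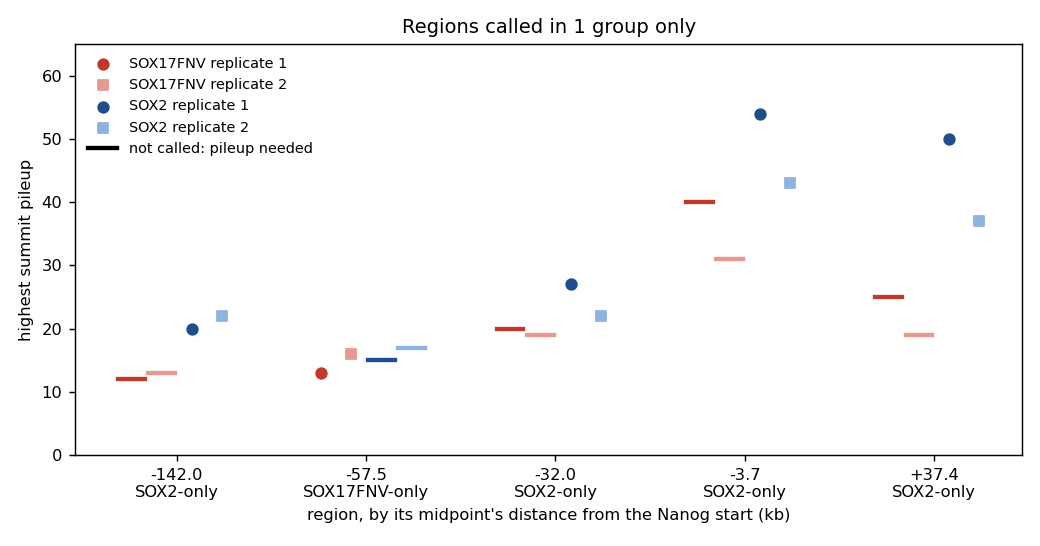
Highest summit pileup (y axis, not scaled) of the 5 regions called in both libraries of 1 group and in neither of the other, by the distance of the midpoint from the Nanog start in kb (x axis). Points are libraries that called the region and short bars the pileup a library without a call needed. At -3.7 kb the needed pileups of 40 and 31 come close to the SOX2 values of 54 and 43, while at +37.4 kb they are 25 and 19 against 50 and 37.

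The gene ends of the members can be set beside related genes on one scale, the median of all gene ends called in all libraries. On it the log2 differences were -0.058 at Nanog, with the groups overlapping, and -0.51 at Dppa3, -0.18 at Gdf3 and -0.14 at the Slc2a3 span's right end, where both SOX17FNV libraries were lower. On the stretch scale, these same regions of Nanog, Gdf3 and the Slc2a3 span's right end were instead higher. The region at the left end of the Slc2a3 span was at -0.35 on that scale, with the groups overlapping. Of all 21887 protein-coding genes, 14065 had an end called in all libraries. Over these 14065 gene ends, SOX17FNV was higher without overlap in 20.3% and lower in 19.9%. Of 18 pluripotency network genes, 16 had an end called in all libraries. Klf5 was higher (log2 difference 0.35), and Dppa2 (-0.36), Prdm14 (-0.35), Tet1 (-0.35) and Sox2 (-0.19) were lower. The median of the 16 was -0.030, beside 0.0023 over all genes. Of 13 genes of Nodal-type signalling, the pathway GDF3 acts in, all had such an end, with 5 higher, 3 lower and a median of 0.084. Lefty1, which encodes a Nodal antagonist, had pileups of 49 and 40 with SOX17FNV against 25 and 27 with SOX2 (log2 difference 0.87). Smad3, a signal transducer gene, was at -0.53. Of 10 other glucose transporter genes of the Slc2a family, 7 had such an end, with 1 higher, 2 lower and a median of 0.072. These ends were not scaled to their own chromosomes. The counts are descriptions of 2 libraries against 2, with exact permutation p values of 0.333 at best.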

How the data were processed

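ATAC-seq peak lists of 4 libraries (2 per group) were used, 1 list per library. The submitters' processing notes name Bowtie2, SAMtools, MACS2 and the build mm10. Not given in the sources used here: versions, settings and any shift of reads for the transposase. The deposited lines hold a fold enrichment (a ratio of summit pileup to local background), the -log10 of p and q, and a score, all as the authors' peak caller wrote them. The lowest -log10 q was 1.30.

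Whole-number pileups were solved from the deposited fold and p with SciPy 1.17.1 (tolerance 0.001, largest difference 0.00014), a step tested on simulated summits. A region's level is its highest summit pileup over the library's median of the other shared regions of the stretch. Group differences of mean log2 levels were tested by exact permutation of the libraries, two-sided. The text names regions within 1 kb of the members' ends, group-specific regions, the 5 highest shared regions, and the 3 highest and 3 lowest non-overlapping differences. Others in the text were chosen after their values were seen. The members and lists were chosen with earlier results of these data known. Gene spans came from the RefSeq table for GRCm38.p6. Alternatives covered the scale, the measure, the peaks used, the merging overlap, the replicate block and leaving out each library.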

Additional observations from a re-analysis of the deposited data

How the results depend on the processing

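No result could pass a threshold, since 2 libraries against 2 allow no exact permutation p below 0.333, and depth limits single regions because pileups were mostly between 10 and 113. The cluster's difference of -0.012 stayed within -0.29 and 0.13 over all settings. It turned to 0.13 with fold enrichment, ranged from -0.087 to 0.063 when 1 library was left out, and was -0.17 for the pileup minus the local background, a measure added after seeing the data. Shared regions numbered 20 with -log10 q of at least 5, 7 with at least 10 and 19 among the strongest 50000 peaks of each list, as fewer peaks entered. With the same cuts SOX2-only regions numbered 1, 0 and 4, and 2 with the strongest 92000 peaks, while SOX17FNV-only regions numbered 1, 0 and 2. Leaving out 1 library gave 35 to 42 shared, 6 to 12 SOX2-only and 1 to 9 SOX17FNV-only regions. The stretch and genome shares under the same cuts are not given, so these counts describe the calls of the cluster only. Of 14 named shared regions, 3 changed sign on the genome scale: Gdf3's right end (-0.13), the Nanog promoter (-0.0032) and Slc2a3's right end (-0.089). With fold enrichment the region 43738 bp upstream of Nanog turned to 0.15 and Slc2a3's left end to 0.15, and with -log10 p the former turned to 0.017. Without 1 library, that region ranged from -0.14 to 0.10, Nanog's far end from -0.50 to 0.071 and the region between Slc2a3 and Foxj2 from -0.40 to 0.24. The replicate numbers are shared between the groups but no label says that they pair libraries. With the replicate block the cluster's difference was -0.013 and none of the 14 regions changed sign. Deviations of same-numbered libraries correlated at 0.23 over the 57783 shared regions of the genome. The cause of these changes was not tested.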
